A study of Mus musculus with 6 samples.

Results

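The genes described here carry the signals that tell a phagocyte or a lymphocyte to hold back, together with the galectins that bind several of the same surface proteins. They are 10 genes chosen by name: Cd47 and its receptor Sirpa, Cd24a and its receptor Siglecg, the galectins Lgals1, Lgals3 and Lgals9, the galectin-binding protein gene Lgals3bp, and the lymphocyte checkpoints Havcr2 (TIM-3) and Lag3. All 10 were among the 20687 gene symbols of the table and all 10 passed the filter on low counts, which left 15212 genes.

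RNA was sequenced from 3 whole-lung samples and 3 samples of the KP cell line, all labelled with the mouse strain C57BL/6. Lungs of 3 mice were pooled for every lung sample, per the labels, and the mice had received 100000 KP cells by tail vein 28 days earlier. The KP line is a mouse lung tumour line whose genotype the labels do not give, and it is the control that every comparison below rests on. No tumour-free lung was analysed here, so normal lung cells and a response to tumours cannot be told apart. Whether the cell line replicates were separate cultures is not stated in the labels, and the p-values then reflect only how far these preparations varied, perhaps for technical reasons.

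CD47 is a widely expressed surface protein that engages SIRPα on macrophages and other myeloid cells. SIRPα then recruits the phosphatases SHP-1 and SHP-2 through its tail and restrains engulfment, which is why CD47 is called a "don't eat me" signal. CD24, a small heavily glycosylated surface protein, acts through inhibitory Siglecs in a similar way, and Siglec-G is its mouse receptor, best known from B cells. Galectins are secreted lectins that bind galactose-containing glycans. Galectin-9 and galectin-3 are among the ligands described for TIM-3 and LAG-3, inhibitory receptors of T cells that myeloid and other lymphoid cells can also carry.

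Levels are CPM (estimated counts per 1000000 of the TMM-scaled library), and a log2 fold change is that of lung over cell line, given with its standard error (SE). Estimated counts summed to between 17786758 and 22862396 per sample. The limit that a count of 0 allows, 3 counts, came to between 0.131 and 0.169 per 1000000 of these sums, before TMM scaling. Lung replicate 2 stood apart, with correlations across genes of 0.936 and 0.908 to the other lung samples against 0.980 between those, and so did cell line replicate 1, with 0.965 and 0.964 against 0.991. Of the 10 macrophage markers 9 were higher in lung, summing to 7454 to 9594 CPM there and 179.5 to 299.8 CPM in the cell line. All 10 T cell markers were higher (204.4 to 262.1 against 14.8 to 25.95 CPM), as were all 8 B cell markers (447.8 to 1012 against 157.2 to 293.6 CPM) and all 6 NK cell markers (64.28 to 96.41 against 2.634 to 4.48 CPM). None of these markers was at 0 counts in the cell line. Of all genes tested, 31.3% were higher in lung at an adjusted p below 0.05. The cell line carried the epithelial genes Krt8 (996.3 to 3454 CPM) and Cdh1 (415.7 to 466.4 CPM) but little Epcam (1.913 to 3.003 CPM), and no counts of Nkx2-1, a transcription factor of lung epithelium.

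Of the 10 genes, 5 were higher in lung at an adjusted p below 0.05 by edgeR's quasi-likelihood test (Sirpa, Lag3, Lgals9, Siglecg and Cd47), against 31.3% of all genes tested. Lgals3 alone was lower, against 17.5% of all genes, and Cd24a, Lgals1, Lgals3bp and Havcr2 did not pass the test. Calls in either direction thus came to 6 of 10, beside 48.8% of all genes. The lung and cell line samples did not overlap for 6 of 10 genes, or 60%, a share near the 62.2% of all genes. The median log2 fold change was 0.91 for the 10 genes and 0.08 for all genes tested. Scaling by library size alone moved the median of all genes by 0.23 and ended the call of Lgals3 (adjusted p = 0.0536).

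**Figure D1:**
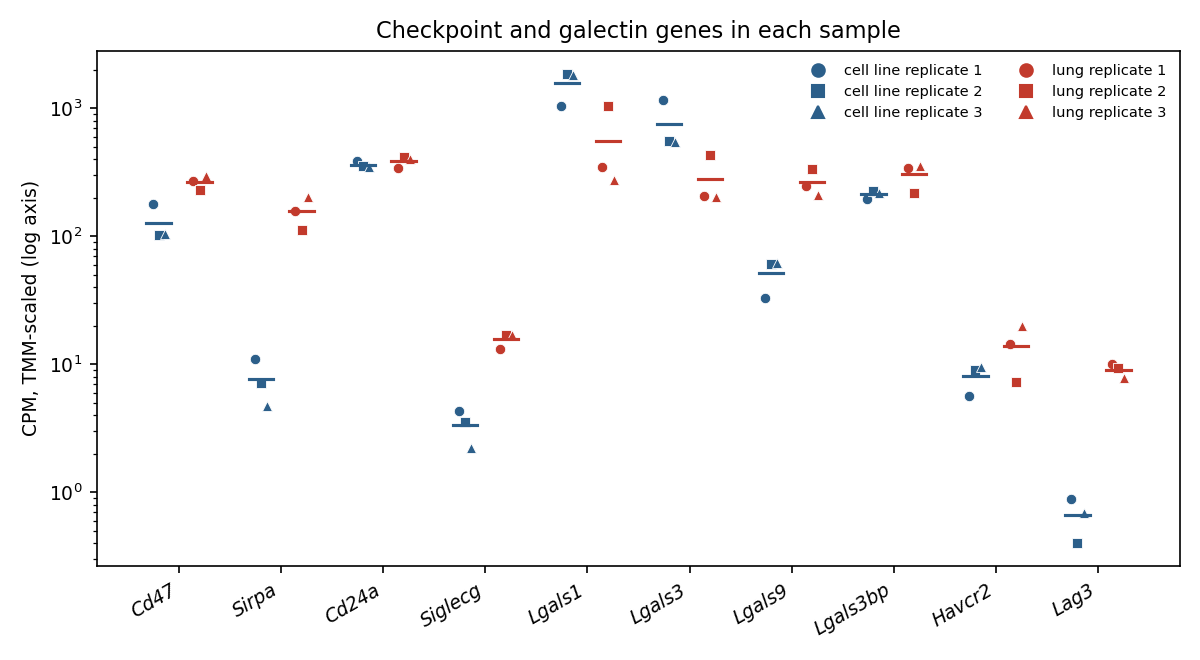
CPM of the 10 genes (vertical log axis) in each of the 3 cell line samples (blue) and 3 lung samples (red), with marker shapes for replicates and lines at group means. Sirpa, Siglecg, Lgals9, Lag3 and Cd47 lie higher in every lung sample than in any cell line sample, Lgals3 lies lower, and Cd24a is nearly level.

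Sirpa showed the largest difference of the 10 genes. SIRPα is the myeloid receptor for CD47. Sirpa stood at 158.0, 112.9 and 202.4 CPM in lung replicates 1, 2 and 3, and at 11.06, 7.142 and 4.689 CPM in cell line replicates 1, 2 and 3. Even the lowest lung sample was far above the highest cell line sample. The log2 fold change was 4.37 (SE 0.42, adjusted p = 9.9e-05), a 20.6-fold difference, and it stayed between 4.11 and 4.74 when any 1 sample was left out. In bulk RNA, fewer cells of a type and less RNA per cell cannot be told apart. Within the cell line, Sirpa in replicate 3 was 0.657 times its level in replicate 2 (95% exact binomial interval 0.494 to 0.869, counting error only). Over the same samples the T, B and NK cell marker sums stood at 0.644, 0.584 and 0.602 times, and the macrophage sum at 0.921 times. The macrophage sum includes Mrc1 and Cd14, at 31.31 to 172.5 and 46.68 to 50.58 CPM in the cell line. Mrc1 was at 162.8 CPM in replicate 2 and 172.5 CPM in replicate 3. Each other macrophage marker was lower in replicate 3, such as Lyz2 (55.12 and then 31.4 CPM) and Csf1r (15.84 and then 11.96 CPM). The sums for neutrophils, endothelium, red cells and lung epithelium stood at 0.680, 0.641, 0.615 and 0.680 times. Those for dendritic cells and for fibroblasts and muscle were at 0.784 and 0.828 times, and those for plasma cells and general epithelium at 0.999 and 1.008 times. The part of any of these cells in the Sirpa difference was not tested.

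Cd47, the ligand, differed much less. It stood at 270.1, 231.5 and 295.6 CPM in lung and at 178.3, 102.1 and 103.8 CPM in the cell line. All lung samples were above all cell line samples, and cell line replicate 1 was 1.73 times the mean of the other cell line samples. Its log2 fold change was 1.05 (SE 0.30, adjusted p = 0.0202). The call was lost without lung replicate 1 (adjusted p = 0.0587), lung replicate 3 (0.0598), cell line replicate 2 (0.0881) or cell line replicate 3 (0.0933), with log2 fold changes between 0.92 and 1.04 in those fits. It was kept without cell line replicate 1, at a log2 fold change of 1.37.

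Cd47 is spliced differently in its coding sequence, and the transcript estimates allow the choice of exon to be followed. The first stretch below is a 63-base coding exon at chr16:49869018-49869080 (GRCm38, plus strand) and the second a 25-base exon near the 3′ end of the coding sequence at chr16:49908054-49908078, which changes the end of the cytoplasmic tail. They are shown because they tell the Cd47 isoforms apart. Capitals mark the alternative stretch and lower case the neighbouring exon bases of the transcript.
Cd47 63-base exon: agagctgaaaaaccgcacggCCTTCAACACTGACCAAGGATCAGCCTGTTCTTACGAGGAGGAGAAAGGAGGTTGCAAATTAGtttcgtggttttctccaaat
Cd47 25-base tail exon: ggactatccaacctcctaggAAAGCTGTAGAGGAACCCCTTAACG

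Coding transcripts with the 63-base exon made up 71.9%, 69.7% and 71.0% of the per-length level of the coding Cd47 transcripts in lung replicates 1, 2 and 3, and 61.1%, 67.5% and 64.0% in cell line replicates 1, 2 and 3. The means were 70.9% ± 1.09 and 64.2% ± 3.19 (SD, n = 3), and the groups did not overlap on this measure. Taken over all Cd47 transcripts, a choice made after seeing the data, the shares were 68.9%, 67.1% and 69.5% in lung and 60.3%, 67.5% and 63.3% in the cell line, and the groups overlapped. Coding transcripts with the 25-base tail exon came to 34.1%, 31.9% and 36.8% in lung and 39.9%, 37.6% and 41.8% in the cell line. Here lung replicate 3 and cell line replicate 2 were less than 1 point apart, so the groups were separate only narrowly. A further 33-base tail exon was at 11.4% ± 1.75 in lung and 7.06% ± 5.30 in the cell line, with overlapping samples. Such shares rest on short reads split between transcripts by the authors' quantification, and the 63-base exon and tail exon shares have no test. The longest coding transcript took 73.1% ± 15.8 of the Cd47 counts in lung and 66.5% ± 1.38 in the cell line (exact two-sided permutation p = 0.4, where 3 against 3 samples cannot go below 0.1), with lung replicate 2 at 55.1% against 79.6% and 84.7% in the other lung samples.

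Partners of the CD47 and SIRPα axis, listed with some related genes, were mostly higher in lung. Of 11 tested, 8 were higher, 1 was lower and 2 did not pass, with a median log2 fold change of 3.38. Over all genes tested, 31.3% were higher and 17.5% lower, with a median of 0.08. The related genes, all higher, were Sirpb1a, Sirpb1b and Sirpb1c of the SIRP family and Qpct, a relative of Qpctl. Sftpa1 and Sftpd, the lung collectins that bind SIRPα and are made by alveolar epithelium, were at 2934 to 3599 and 771.3 to 850.5 CPM in lung, with no counts in any cell line sample. Ptpn6, encoding SHP-1 of blood cells, stood at 94.8 ± 10.8 CPM in lung against 12.0 ± 0.974 CPM in cell line samples (log2 fold change 2.99, SE 0.24, adjusted p = 4.89e-05). Ptpn11, encoding the broadly expressed SHP-2, went the other way, at 99.7 ± 31.8 against 197 ± 20.1 CPM (log2 fold change -0.99, adjusted p = 0.0273). That call was lost with library size scaling alone (adjusted p = 0.0804) and without lung replicate 1 (0.0503), cell line replicate 2 (0.0922) or cell line replicate 3 (0.0898). Thbs1, the matrix protein thrombospondin-1 that binds CD47, did not pass, at 247.4, 66.65 and 298.8 CPM in lung and 95.9, 576.7 and 586.7 CPM in the cell line. Qpctl, the enzyme that modifies the N terminus of CD47 at its SIRPα contact, also did not pass (17.2 ± 3.39 against 18.9 ± 1.14 CPM, adjusted p = 0.681). It is named as the other partner that did not pass, after its value was seen.

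Cd24a was among the steadiest of the genes. It stood at 342.2, 416.4 and 399.5 CPM in lung and at 389.2, 352.4 and 351.6 CPM in the cell line, with overlapping groups. The log2 fold change was 0.08 (SE 0.25, adjusted p = 0.799), and without lung replicate 2 it was -0.02. Transcript Cd24a-201 held 99.9% of its counts in lung and 99.8% in the cell line. Reads of processed copies of this gene elsewhere in the genome could be shared with it.

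Siglecg, the receptor, was higher in lung. It stood at 13.06, 17.03 and 16.88 CPM in lung and at 4.293, 3.513 and 2.213 CPM in the cell line. The groups were separate, and the log2 fold change was 2.23 (SE 0.34, adjusted p = 0.000931), or 4.68-fold, with a range of 2.0 to 2.45 when any 1 sample was left out. The fitted value was above that of each of the 8 B cell markers, whose log2 fold changes lay between 1.04 and 1.99 with a median of 1.52. Siglecg in cell line replicate 3 was 0.630 times its level in replicate 2 (95% interval 0.415 to 0.948), beside 0.584 times for the B cell marker sum, and the part of B cells in the difference was not tested. The coding transcript Siglecg-201 took 47.1% ± 7.86 of the counts in lung and 53.0% ± 1.78 in the cell line (exact permutation p = 0.4), and nearly all other counts lay in transcript models with a retained intron.

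The other Siglecs, and Cd52, a lymphocyte surface peptide whose shed form binds an inhibitory Siglec, followed the same direction with a single exception. Of 9 tested, 8 were higher and 1 was lower, with a median log2 fold change of 3.72. The shares of all genes tested were 31.3% higher and 17.5% lower. Cd52 stood at 153 ± 87.3 CPM in lung against 6.10 ± 1.61 CPM in cell line samples (log2 fold change 4.64). Cd22, the B cell Siglec, stood at 32.5 ± 5.34 against 9.15 ± 2.91 CPM (1.83), close to Siglecg in size, and the myeloid Cd33 at 31.4 ± 13.1 against 1.41 ± 0.387 CPM (4.47). Siglec15, a Siglec known from osteoclasts and tumours, was the exception, with 162 counts over the cell line samples and 3 counts over the lung samples, a cell line to lung ratio of 62.5 (95% counting interval 21.0 to 306).

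Among the galectins the direction was split. Lgals3 was lower in lung, Lgals9 was higher, and Lgals1 had a fold change like that of Lgals3 but did not pass the test. Galectin-3 is a chimera-type galectin abundant in epithelia and macrophages. Lgals3 stood at 205.9, 429.3 and 202.9 CPM in lung and at 1155, 561.4 and 551.1 CPM in the cell line. The groups were separate although a single sample in each stood well above its group, lung replicate 2 at 2.10 times and cell line replicate 1 at 2.08 times the mean of the others. The log2 fold change was -1.44 (SE 0.45, adjusted p = 0.0281), 2.70-fold lower. The call was lost without cell line replicate 1 (log2 fold change -0.99, adjusted p = 0.0815), lung replicate 1 (-1.26, 0.0979) or lung replicate 3 (-1.25, 0.0815), with library size scaling alone (-1.22, 0.0536), and when 10 or more counts were asked for in all 6 samples (-1.23, 0.0688).

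Galectin-1, a small dimeric galectin of many tumour and stromal cells, was the most abundant of the 10 gene products per length in both groups. Lgals1 stood at 348.1, 1050 and 274.3 CPM in lung and at 1045, 1853 and 1822 CPM in the cell line. Lung replicate 2 just exceeded cell line replicate 1, so the groups overlapped. The log2 fold change was -1.50 (SE 0.55, adjusted p = 0.0524). Without lung replicate 2, which was 3.37 times the mean of the other lung samples, it was -2.39 (adjusted p = 0.00294), and over the other leave-one-out fits the call was not reached. Lgals1 was also called with no filter on low counts (log2 fold change -1.59, adjusted p = 0.031), by the DESeq2 Wald test (-1.50, 0.00912), by limma-voom (-1.72, 0.0296) and with the transcript length offset (-1.50, 0.0489), always lower in lung.

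Lung replicate 2 differed from the other lung samples by transcript length, and both of these galectin transcripts are short. Its median log2 deviation from the mean of lung replicates 1 and 3 was 0.71 in the shortest quartile of genes, 0.06 in the second, -0.45 in the third and -0.96 in the longest. Lgals1 (799 bases) deviated by 1.76 and Lgals3 (1132 bases) by 1.07, while Havcr2 (2721 bases) deviated by -1.16 and Lgals3bp (2037 bases) by -0.68. The other genes were Lgals9 at 0.56, Cd24a at 0.17, Lag3 (2001 bases) at 0.07, Cd47 at -0.29, Siglecg (3106 bases) at 0.19 and Sirpa at -0.66. Lgals3bp thus lay below the median of the second quartile, to which it belongs, and Siglecg above that of the third. Cell line replicate 1 had no such gradient, with medians between 0.00 and 0.05 in all quartiles. Its deviation was 1.05 for Lgals3, 0.88 for Sirpa, 0.79 for Cd47, -0.81 for Lgals1 and -0.88 for Lgals9. The part of length in these differences was not tested.

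**Figure D2:**
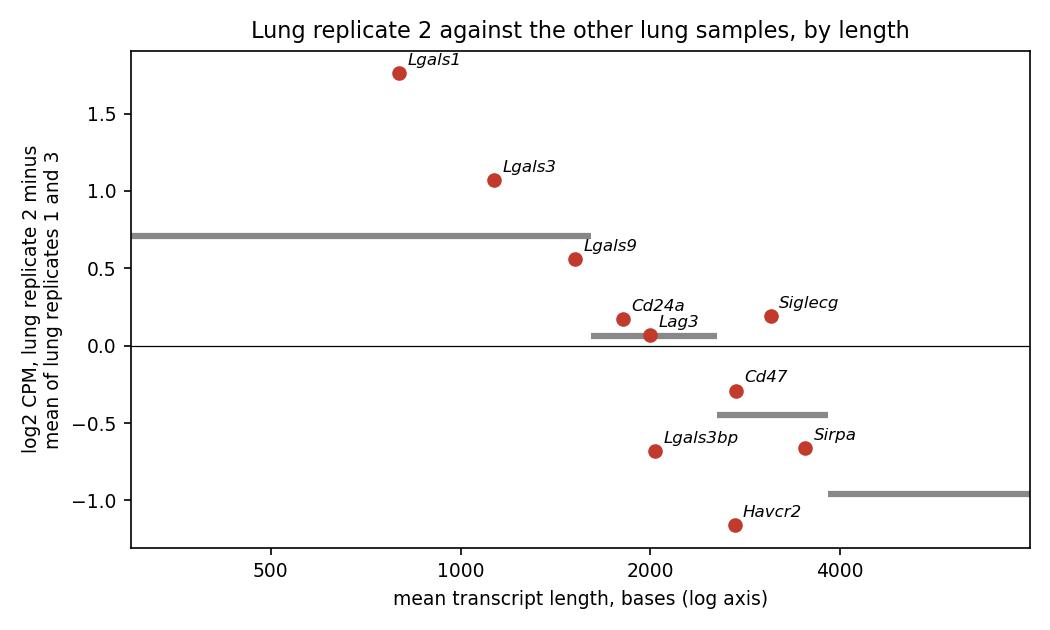
Log2 CPM of lung replicate 2 minus the mean of lung replicates 1 and 3 (vertical axis) against mean transcript length in bases (log axis) for the 10 genes (points), with the medians of all tested genes in quartiles of length (grey bars, the outer ones drawn only to the plot's edge). The bars step down from 0.71 to -0.96, with Lgals1 and Lgals3 high on the left and Havcr2 lowest.

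Galectin-9 is a tandem-repeat galectin with a pair of carbohydrate-binding domains joined by a linker. Lgals9 stood at 247.5, 337.4 and 212.4 CPM in lung and at 32.99, 60.48 and 61.48 CPM in the cell line. The groups were far apart, with cell line replicate 1 the lowest sample. This came to a log2 fold change of 2.36 (SE 0.34, adjusted p = 0.000728), 5.15-fold, and between 2.10 and 2.51 when any 1 sample was left out. Between cell line replicates 3 and 2 the ratio was 1.02 (95% interval 0.935 to 1.11). Over the same samples the marker sums stood at 0.584 to 0.644 for the lymphocytes, 0.921 for macrophages and 0.784 for dendritic cells. Most of the macrophage sum was Mrc1, at 162.8 CPM in replicate 2 and 172.5 CPM in replicate 3. Each of the other macrophage markers was lower in replicate 3, such as Lyz2 at 55.12 and then 31.4 CPM. The part of such cells in the Lgals9 difference was not tested.

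The table holds a coding transcript of Lgals9 with and another without a 93-base exon, at chr11:78969714-78969806 (GRCm38, minus strand), a length that keeps the reading frame. The exon is shown in capitals with 20 bases of the transcript on either side, since its presence sets which galectin-9 isoform is made.
Lgals9 93-base exon: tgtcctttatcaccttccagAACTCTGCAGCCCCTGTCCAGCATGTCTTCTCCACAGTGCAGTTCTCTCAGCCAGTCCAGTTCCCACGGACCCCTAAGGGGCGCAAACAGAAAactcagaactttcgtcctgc
Transcripts with it made up 4.86%, 3.69% and 2.48% of the per-length level of the coding Lgals9 transcripts in lung and 2.37%, 6.45% and 3.88% in the cell line. The shorter form without the exon thus prevailed in every sample, and the groups overlapped. Counted over all its transcripts, the short form Lgals9-202 took 95.8% ± 1.10 in lung and 95.5% ± 2.11 in the cell line (exact permutation p = 0.8).

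The start regions of Lgals9 and Lgals3, the galectins called in opposite directions, are printed for comparison, from 250 bases before to 50 bases after the annotated start (RefSeq, GRCm38.p6). A window was matched for 6 of the 10 genes. The Lgals9 window lies at chr11:78984875-78985174 (minus strand) and the Lgals3 window at chr14:47373610-47373909 (plus strand). Capitals mark matches, on either strand, to the core of the interferon-stimulated response element (ISRE) in Lgals9, and to GGGCGG, a GC box, in Lgals3.
Lgals9: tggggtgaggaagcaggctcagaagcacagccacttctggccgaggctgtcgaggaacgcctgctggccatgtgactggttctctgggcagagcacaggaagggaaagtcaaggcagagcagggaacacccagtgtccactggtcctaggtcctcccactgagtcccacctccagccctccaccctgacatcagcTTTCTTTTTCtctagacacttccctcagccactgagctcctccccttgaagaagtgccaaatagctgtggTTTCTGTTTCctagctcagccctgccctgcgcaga
Lgals3: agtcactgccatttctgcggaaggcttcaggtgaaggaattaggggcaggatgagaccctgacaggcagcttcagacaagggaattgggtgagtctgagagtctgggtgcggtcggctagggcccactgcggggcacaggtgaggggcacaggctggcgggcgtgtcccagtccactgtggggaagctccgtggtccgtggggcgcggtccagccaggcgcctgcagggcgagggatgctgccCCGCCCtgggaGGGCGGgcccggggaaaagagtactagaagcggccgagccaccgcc

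Lgals9 held 2 matches to the ISRE core, the first base of one 55 bases before the start and of the other 15 bases after it. Of 32851 windows 3.44% held such a match, and Lgals9 was the only one of the 6 genes to hold it. Lgals3 held 2 matches to GGGCGG, a motif present in 35.7% of windows, Cd47 among them. The other motifs searched, on both strands, were TTCNNNGAA (8.30% of windows, none of the 6 genes), TGANTCA (7.81%, Havcr2), CACGTG (7.15%, none), TATAAA (13.6%, none), CCAAT (37.4%, Lgals3) and the NF-kB motif (8.46%, Lgals3). These are matches of letters in a fixed window and say nothing of binding in these samples.

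Lgals3bp encodes a secreted glycoprotein that binds galectin-3 and galectin-1. It stood at 342.0, 218.3 and 355.6 CPM in lung and at 194.7, 227.1 and 217.7 CPM in the cell line. Lung replicate 2 fell among the cell line samples, and the log2 fold change of 0.52 (SE 0.28) did not pass (adjusted p = 0.155). Without lung replicate 2 it was 0.66 (adjusted p = 0.0146). The full-length transcript Lgals3bp-201 took 88.3% ± 7.41 of the counts in lung and 98.1% ± 0.17 in the cell line, with separate groups (exact permutation p = 0.1). A short model of 686 bases, Lgals3bp-205, took 8.83%, 19.7% and 5.65% in lung. With an offset for transcript length, the gene passed the test at a log2 fold change of 0.78 (adjusted p = 0.0288).

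Of the other galectins, 6 were tested, of which 4 were higher in lung, none was lower and 2 did not pass. Their median log2 fold change was 1.80. Over all genes tested, 31.3% were higher and 17.5% lower. Lgals4, a galectin of the gut and other epithelia, stood at 161.7, 264.6 and 82.33 CPM in lung and at 58.28, 59.5 and 63.75 CPM in cell line samples (log2 fold change 1.49, SE 0.40, adjusted p = 0.0164), and lost the call without cell line replicate 1 (0.0542). Lgalsl, which encodes a galectin-related protein, stood at 67.0 ± 14.7 against 28.1 ± 4.51 CPM (1.25, adjusted p = 0.00516). Lgals7, an epidermal galectin, was near the floor at 1.83 ± 1.46 against 0.17 ± 0.209 CPM (adjusted p = 0.023) and lost the call without lung replicate 2, cell line replicate 1 or cell line replicate 3. Lgals12, of fat and myeloid cells, had 131 counts over the lung samples. With 0 counts in all cell line samples it was at least 38.0-fold higher in lung, taken against 3 counts over the group.

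Lgals2 and Lgals8 were the galectins of this list that did not pass. Lgals2 spread widely, at 124.4, 306.6 and 45.4 CPM in lung, and at 9.38, 52.82 and 47.52 CPM in cell line samples (log2 fold change 2.12, SE 0.79, adjusted p = 0.0565), and passed without lung replicate 3 (2.56, 0.0176) and with library size scaling alone (2.35, 0.0401). Lgals8, a tandem-repeat galectin, stood at 72.4 ± 8.61 against 58.3 ± 28.8 CPM (0.31, adjusted p = 0.493), and passed without cell line replicate 1 (0.80, 0.0244), whose 91.56 CPM stood above 42.97 and 40.35 CPM in the others. Grifin had 3 counts over the lung samples and was not tested.

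Compared per length, the mix of galectin transcripts differed between the groups. Levels per length are estimated counts divided by transcript length and scaled to 1000000 per sample. All galectins together came to 2384, 3849 and 1807 in lung and to 4402, 5346 and 5231 in the cell line, so that every cell line sample was above every lung sample. Lgals1 made up 37.2%, 49.1% and 39.9% of this in lung and 53.3%, 77.1% and 77.1% in the cell line. Lgals3 took 17.0% ± 3.76 in lung and 24.7% ± 14.5 in the cell line, where replicate 1 was at 41.5% and the others at 16.3%, so that its share overlapped although its level did not. Lgals9 took 12.8% ± 4.14 in lung and 1.19% ± 0.265 in the cell line, Lgals2 15.4% ± 5.66 and 2.11% ± 1.27, and Lgals4 8.24% ± 1.80 and 1.59% ± 0.144, each with separate groups. Since shares sum to a whole, a higher share of one galectin lowers the shares of the rest.

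**Figure D3:**
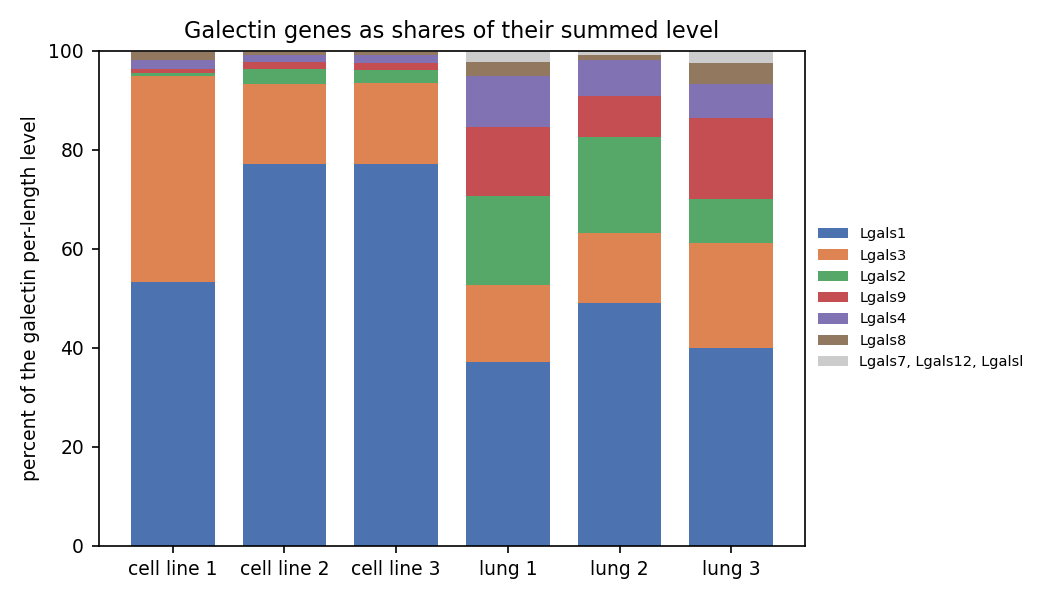
Share of each galectin gene in the summed per-length galectin level (percent) in each sample, stacked to the whole. Lgals1 fills 53.3% to 77.1% of the cell line bars and 37.2% to 49.1% of the lung bars, where Lgals2, Lgals9 and Lgals4 take more room than in the cell line.

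The enzymes that build the glycans galectins bind showed no common direction. Of 12 tested, 2 were higher, 2 were lower and 8 did not pass, with a median log2 fold change of -0.16, which became 0.08 with library size scaling alone. St3gal1, a sialyltransferase that caps O-glycans, stood at 111 ± 49.1 CPM in lung against 35.9 ± 3.96 CPM in cell line samples (log2 fold change 1.63, adjusted p = 0.00774). Mgat1, which starts complex N-glycan branching, was at 104 ± 0.983 against 63.9 ± 0.584 CPM (0.70, adjusted p = 0.0236). Its call was lost without lung replicate 1 or 3 or cell line replicate 2 or 3, at log2 fold changes of 0.70 to 0.72 and adjusted p between 0.0714 and 0.111. Among the enzymes of later branching, Mgat4b was lower in lung (84.2 ± 9.67 against 175 ± 22.4 CPM, -1.05, adjusted p = 0.00662). Mgat5, whose branch galectins favour, was at 40.9 ± 19.1 against 97.3 ± 34.7 CPM (-1.25, adjusted p = 0.0487), a call lost with library size scaling alone (0.101) and without lung replicate 1 (0.0811), lung replicate 2 (0.0631), cell line replicate 2 (0.131) or cell line replicate 3 (0.136). B4galt1, a galactosyltransferase of the galectin-binding disaccharide, was at 146 ± 49.4 against 147.5 ± 43.5 CPM (-0.01, SE 0.34, adjusted p = 0.976).

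Of the lymphocyte checkpoints, Lag3 was higher in lung and Havcr2 did not pass the test. LAG-3 binds MHC class II. Lag3 stood at 10.11, 9.376 and 7.792 CPM in lung and at 0.887, 0.403 and 0.685 CPM in the cell line, where it had 39 counts in all. Its log2 fold change was 3.76 (SE 0.41, adjusted p = 0.000167), 13.6-fold, and between 3.54 and 4.04 when any 1 sample was left out. The median log2 fold change was 3.61 over the 10 T cell markers and 4.33 over the 6 NK cell markers, and the part of those cells in the difference was not tested. The ratio of cell line replicate 3 to 2 was 1.70 on 13 and 7 counts (95% interval 0.630 to 5.03).

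TIM-3, the product of Havcr2, is found on T cells, NK cells and myeloid cells. Havcr2 stood at 14.34, 7.253 and 19.79 CPM in lung and at 5.693, 9.043 and 9.588 CPM in the cell line. Lung replicate 2 lay among the cell line samples, and the log2 fold change of 0.77 (SE 0.41) did not pass (adjusted p = 0.157). Without lung replicate 2 it was 1.02 (adjusted p = 0.0356). In the cell line the ratio of replicate 3 to 2 was 1.06 (95% interval 0.852 to 1.321) beside 0.644 for the T cell and 0.602 for the NK cell marker sum. Among myeloid cells, the macrophage sum, mostly Mrc1, stood at 0.921, the dendritic cell sum at 0.784 and the neutrophil sum at 0.680. The part of any of these cells in the Havcr2 level was not tested. Havcr2 had the highest cell line level of the 4 receptors (Sirpa, Siglecg, Havcr2 and Lag3) per length, at 5.30 ± 1.34 against 3.93 ± 2.01 for Sirpa, with overlapping samples.

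Other ligands and partners of TIM-3 and LAG-3 were listed with Cd4 and with Havcr1 and Timd4 of the TIM family. Of 10 tested, 7 were higher in lung, Cd4, Havcr1 and Timd4 among them, 1 was lower and 2 did not pass. The median log2 fold change was 2.37. The MHC class II genes H2-Aa and H2-Ab1, whose product LAG-3 binds, stood at 1048 ± 276 and 788 ± 221 CPM in lung and at 42.8 ± 13.3 and 35.0 ± 10.6 CPM in cell line samples (log2 fold changes 4.61 and 4.49). Ceacam1, a surface glycoprotein described as a TIM-3 partner, stood at 42.9 ± 25.9 against 5.24 ± 0.477 CPM (3.03, adjusted p = 0.000901). Bag6, whose product binds the TIM-3 tail, was lower in lung at 139 ± 27.5 against 296 ± 37.6 CPM (-1.09, adjusted p = 0.00969), a call lost without cell line replicate 2 (0.0534). Hmgb1, a nuclear protein and secreted TIM-3 ligand, was at 316 ± 38.4 against 426 ± 206 CPM (-0.43, adjusted p = 0.416) and passed without cell line replicate 1 (-0.79, 0.0309), which held 188.6 CPM against 551.5 and 538.8 CPM in the others.

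**Figure D4:**
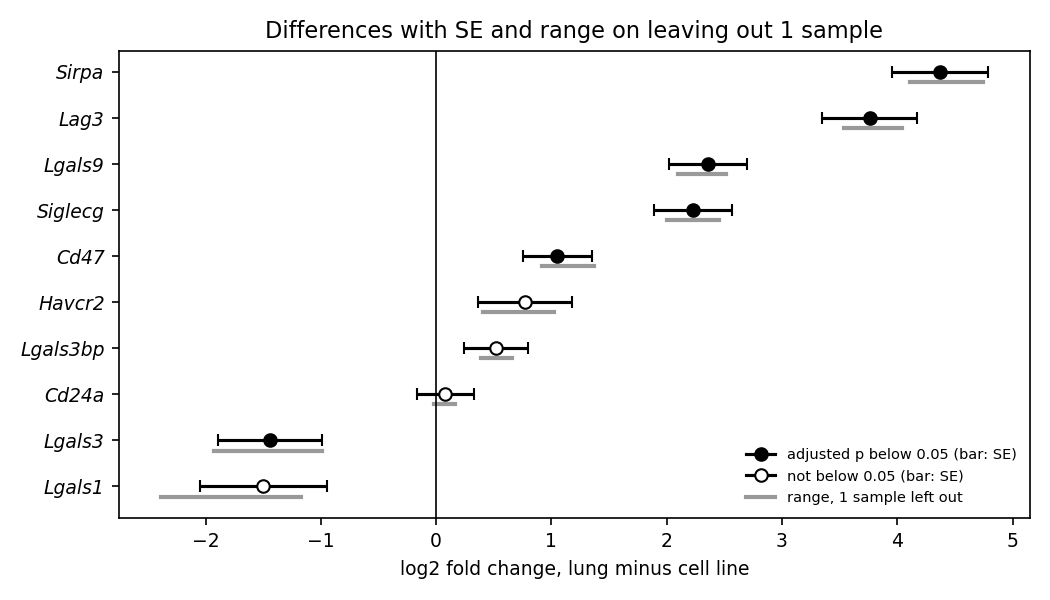
Log2 fold change, lung minus cell line, of the 10 genes with SE bars (filled points: adjusted p below 0.05) and the range over fits with 1 sample left out (grey). The ranges for Sirpa, Lag3, Lgals9 and Siglecg lie between 2.0 and 4.74, while that of Lgals1 runs from -2.39 to -1.17.

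Ordered by per-length level, the ligands led and the receptors trailed in both groups. In lung the order was Lgals1 (1166 ± 634), Lgals3 (432.5 ± 96.3), Cd24a (392 ± 66.9), Lgals9 (315 ± 18.6), Lgals3bp (309 ± 95.2), Cd47 (168 ± 10.3), Sirpa (86.7 ± 38.8), Havcr2 (9.93 ± 5.75), Siglecg (9.13 ± 1.56) and Lag3 (8.40 ± 1.78). The samples of neighbours overlapped from Lgals3 through Lgals3bp and from Havcr2 through Lag3. Within these runs Cd24a was above Lgals9 in all 3 lung samples, as was Lgals3. The other neighbours in these runs changed order between samples. In the cell line it was Lgals1 (3500 ± 999), Lgals3 (1185 ± 556), Cd24a (358 ± 25.0), Lgals3bp (170 ± 11.5), Cd47 (90.1 ± 29.6), Lgals9 (60.3 ± 18.5), Havcr2 (5.30 ± 1.34), Sirpa (3.93 ± 2.01), Siglecg (1.94 ± 0.636) and Lag3 (0.588 ± 0.223). There, only the samples of Havcr2, Sirpa and Siglecg overlapped with their neighbours, though Sirpa was above Siglecg in every cell line sample. Lgals1 ranked 26th of the 15212 genes by mean per-length level in the cell line and 119th in lung.

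Ratios of ligand to receptor within a sample therefore differed by axis. Cd47 over Sirpa was 1.88, 3.43 and 1.43 in lung and 20.2, 21.8 and 32.1 in the cell line, per length. Cd24a over Siglecg was 45.7, 40.9 and 42.4 in lung and 153, 169 and 271 in the cell line. In both axes the groups were separate. The mean per-length levels of ligand and receptor were both higher in lung, the receptor by the larger factor. For Cd24a the samples of the groups overlapped. Lgals9 over Havcr2 ran the other way, at 31.0, 83.3 and 19.4 in lung and 10.4, 12.0 and 11.5 in the cell line, here with the ligand differing more than the receptor. Within the galectins, Lgals3 over Lgals9 was 1.12, 1.71 and 1.30 in lung and 46.9, 12.4 and 12.0 in the cell line. Such ratios are of transcripts in a mixed tissue and do not give the ratio on any cell.

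Genes of engulfment, set beside the checkpoints, were mostly higher in lung. The list held signals and receptors that promote it, the intracellular adaptors Elmo1 and Dock1, and Fcgr2b, an inhibitory Fc receptor. Of 18 tested, 12 were higher, Fcgr2b among them, 1 was lower and 5 did not pass. The median log2 fold change was 4.59. Cd36, a scavenger receptor of macrophages and endothelium, stood at 731 ± 235 CPM in lung against 5.52 ± 1.36 CPM in cell line samples (7.05), Lrp1, the receptor for exposed calreticulin, at 256 ± 108 against 63.2 ± 23.7 CPM (2.02), and Itgb2, the leukocyte integrin chain, at 144.5 ± 56.4 against 6.95 ± 1.47 CPM (4.38). Axl, a receptor for phosphatidylserine bridging proteins that many tumour lines express, was lower in lung at 297 ± 52.5 against 979 ± 206 CPM (-1.72, SE 0.31, adjusted p = 0.0021). Calr, encoding calreticulin, an "eat me" signal when exposed at the surface, did not pass (adjusted p = 0.0839), at 656.2, 587.2 and 684.4 CPM in lung and 2986, 810.1 and 824.3 CPM in the cell line. Its groups were separate, but cell line replicate 1 stood well above the rest.

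All 6 other phagocyte checkpoint genes tested were higher in lung, against 31.3% of all genes tested. Their median log2 fold change was 4.30. B2m, the light chain of MHC class I, which engages inhibitory receptors on macrophages, stood at 1822, 2493 and 1839 CPM in lung, and at 298.5, 156.8 and 139.8 CPM in cell line samples (3.37, SE 0.41, adjusted p = 0.000301). The inhibitory receptor genes Lilrb4a (64.3 ± 22.1 against 0.701 ± 0.404 CPM, 6.49) and Pirb (52.5 ± 12.6 against 2.61 ± 0.816 CPM, 4.32) differed more. Lilrb4a and Pirb belong to families with near-identical members, so reads may be split between copies.

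**Figure D5:**
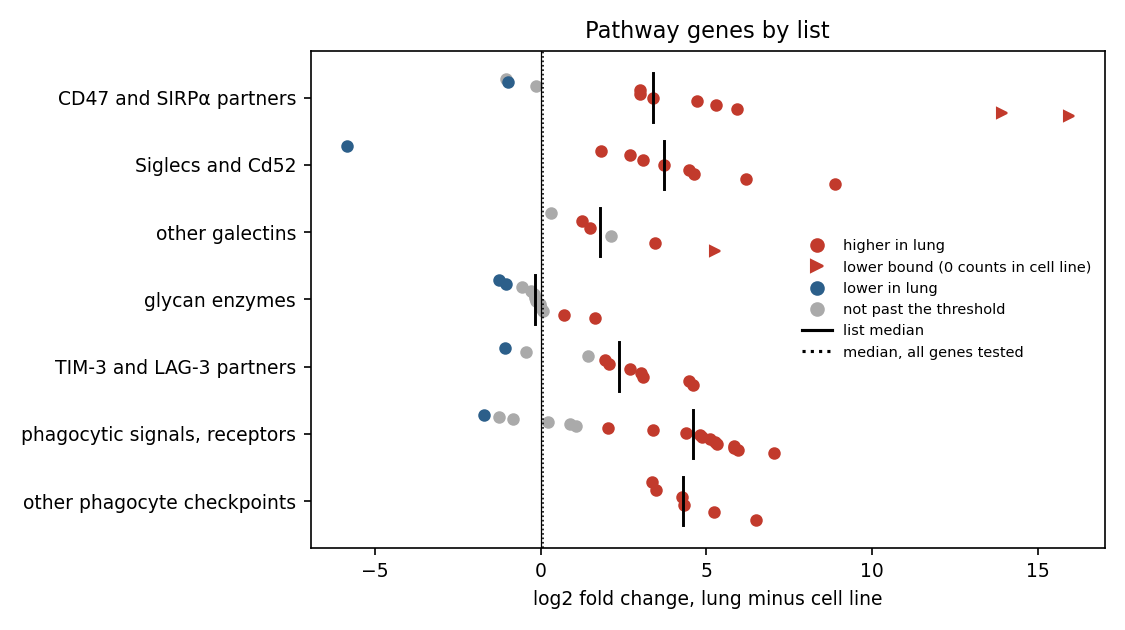
Log2 fold change, lung minus cell line, of each tested gene of the 7 pathway lists, coloured by call, with list medians (black) and the median of all genes tested (dotted). Triangles are lower bounds for Sftpd, Sftpa1 and Lgals12, which had 0 counts in the cell line; the glycan enzymes centre on -0.16 and the other lists on 1.80 to 4.59.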

How the data were processed

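RNA sequencing of 3 lung and 3 cell line samples was analysed. The table the authors deposited gives estimated counts of transcripts in each sample. The submitters' processing notes name the build GRCm39 and the tools Salmon 1.4.0, FastQC 0.11.9 and DESeq2 1.32.0, with no roles. Per the labels' protocols, lungs were digested with collagenase, RNA was cleaned on columns, and a stranded mRNA kit was used. The same text stands on the cell line samples, and it also mentions a Nugen amplification before hybridization.

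Of 76776 transcripts, 76521 matched GENCODE M21 (GRCm38), used for names, lengths, exon positions and exon sequences, and were summed to genes. The other 255 held 0.107% to 0.416% of counts. Sums were rounded and tested with edgeR 4.0.16 in R 4.3.3 (quasi-likelihood F test, robust, TMM, expression filter by group, group only). P-values were adjusted by Benjamini-Hochberg over 15212 genes, and the threshold was 0.05. Each SE was taken as the log2 fold change over the square root of F. Values after ± are SDs over n = 3. The test was also run on simulated data, with an outcome that is not given here. All 10 genes and all measured galectins were named. From each pathway list the 3 genes of highest mean CPM among those called in the main direction, the 2 largest changes in the other direction and the most abundant gene not called were named. Markers are named where a gene is set beside them, and some further genes only to say what a list held. The genes and lists were chosen with earlier results of these data known.

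Other settings tried were library size alone or DESeq2 size factors, no filter or a filter of 10 counts in all 6 samples, limma-voom (limma 3.58.1), the Wald test of DESeq2 1.42.0, a replicate block, a transcript length offset, coding transcripts only, and samples left out.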

Additional observations from a re-analysis of the deposited data

How the results depend on the processing

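Of 159 fold changes of the 10 genes under the 16 alternatives, 137 kept direction and call, 12 gained a call, 9 lost one and 1 turned direction (Cd24a, -0.02 without lung replicate 2 and up to 0.16 without lung replicate 1). Sirpa, Siglecg, Lgals9 and Lag3 kept theirs under every alternative that tested them. Lag3 was not tested with 10 or more counts in all 6 samples, which left 9 of the genes.

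The count of these genes that were lower in lung was 1. It was 0 with library size alone and with 10 or more counts in all 6 samples, and 2, with Lgals1, with no filter, the DESeq2 Wald test, limma-voom, the replicate block (Lgals1 at -1.71, adjusted p = 0.00421), the length offset, and without both cell line replicate 1 and lung replicate 2. It ran from 0 to 2 when 1 sample was left out. The count of those higher was 5 and ran from 4 to 7.

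Over all genes, 4758 were higher and 2664 lower. With 10 or more counts in all 6 samples, 2555 were higher and 1701 lower, and library size alone gave 1728 lower, with 75.1% of calls higher against 64.1%. Leaving out 1 sample gave 1564 to 3695 lower, and leaving out both cell line replicate 1 and lung replicate 2 gave 6488 and 5355 from the 2 samples per group that were most alike, and 4 higher and 4 lower among the glycan enzymes. The replicate block gave 4634 and 2526. The pairing rests on a number alone, since deviations of same-numbered samples correlated at -0.0422, 0.0822 and -0.0834.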
